A study of Homo sapiens with 6 samples.

Results

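The cyclins, the cyclin-dependent kinases (CDKs) and the proteins that switch these kinases on and off were followed in U87 cells, an established human glioblastoma cell line, after depletion of the zinc finger transcription factor ZNF768. The members were chosen by gene symbol and by no cut on a measured value, though earlier results of these data were known. They are the cyclins whose symbol ends in a digit, the numbered CDKs, genes named CDKN (other than CDKN1A and antisense genes), the CDC25 phosphatases, WEE1, PKMYT1, CKS1B and CKS2. Of 14884 genes with a named probeset, 44 were members. Another 10 symbols that fit the choice (CCNA1, CDK3, CDK11B, CCNI2, CDKN2B, CDKN2C, CDKN2D, CDKN1B, CDKN1C and PKMYT1) had no named probeset here and were not analysed. The INK4 inhibitors therefore have CDKN2A alone. The CIP/KIP inhibitors have no measured member, because CDKN1A (p21), which also belongs to them, was left out by the choice itself. Statements on CDK inhibitors below do not cover CDKN1A.

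RNA was taken 96 h after lentiviral infection from selected control cells (3 arrays) and selected cells with a knockdown of ZNF768 (3 arrays), described by the labels as biological replicates. Selection in the study used puromycin or blasticidin, depending on the construct, and the drug used for these arrays is not named. The methods of the study state that its cell lines were grown in medium with serum. The labels name neither the control vector nor the hairpin. Values are log2 expression values per probeset of the Human Gene 2.0 ST array after Robust Multichip Average (RMA), and the number of arrays limits the precision. Array medians lay between 6.40 and 6.44, and the log2 values of any pair of arrays correlated at 0.992 to 0.994 within the groups and at 0.977 to 0.980 across them. ZNF768 itself read 8.49, 8.54 and 8.54 in control cells and 7.02, 7.14 and 7.31 in ZNF768 depleted cells, 38.8% of the control level. Of the markers of the line, 10 of 11 had a probeset and their mean level per array was 10.31 to 10.32 in control and 10.08 to 10.11 in ZNF768 depleted cells. GFAP and S100B, the glial markers among them, were dim in both groups, with means of 6.83 and 5.91 in control cells, whereas VIM read 11.76 in control and 11.05 in ZNF768 depleted cells. Of these 10 line markers 4 fell (VIM, CD44, NES and SOX9, to between 61.1% and 78.7% of the control level) and none rose. Over all genes 16.8% fell and 16.6% rose, shares that also serve for the myeloid markers that follow. Markers of myeloid cells differed too (10 of 14 measured, 5 fell and 1 rose, mean per array 7.78 to 7.84 in control and 7.12 to 7.16 in ZNF768 depleted cells). CD68 was bright and fell from 12.73 to 9.62, to 11.6% of the control level, and EVI2B (log2 fold change -2.28), CD53 (-1.46), CSF1R (-0.50) and LAPTM5 (-0.34) fell as well, while CTSS rose (0.72). CD14, CD163 and LYZ were dim (5.24 to 5.89 in control cells) and, like TYROBP, not past the test. Their part in the results below was not tested.

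A CDK is inactive until a cyclin binds it. Cyclin D with CDK4 or CDK6 carries cells through G1 by phosphorylating the retinoblastoma protein, cyclin E and cyclin A with CDK2 drive DNA replication, and cyclin A and cyclin B with CDK1 drive mitosis. Other family members do not time the cycle. They phosphorylate RNA polymerase II or act within the Mediator complex, and a further branch, around CDK5 and the cyclin Y-dependent kinases, acts in signaling. The cell cycle branch is switched off by WEE1 and PKMYT1 and by the INK4 and CIP/KIP proteins, and switched on by the CDC25 phosphatases and by CDK7, which phosphorylates the activation loop. In RNA of a whole culture, fewer cells in a phase of the cycle and less RNA per cell cannot be told apart.

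The deepest falls lay among the cell cycle cyclins and CDKs and their regulators, which differed widely in size of change. A member passed the test where its limma p, adjusted for all 53617 probesets, was below 0.05, and by that measure 17 of the 44 members fell and 8 rose in ZNF768 depleted cells. Over all 14884 genes 16.8% fell and 16.6% rose, and the members had 38.6% and 18.2%. A fall of at least 2-fold that passed the test was seen in 12 members, against 3.37% of all genes, and no member rose at least 2-fold, against 1.22% of all genes. All 3 depleted arrays were lower than all 3 control arrays for 23 members and higher for 12, where 23.5% and 28.0% of all genes did so. With the arrays centred on housekeeping genes 15 members fell and 11 rose, whereas the count that rose was 5 without array 1 of the depleted cells or with the replicate number as a block, and 4 at an adjusted p of 0.01. Of the 6 housekeeping genes used for centring, 2 fell themselves (PPIA and TBP, log2 fold changes -0.30 and -0.25) and none rose past the test. The cell cycle class held 13 measured cyclins and CDKs with a median log2 fold change of -1.01, and the transcriptional class held 11 with a median of 0.01, where the median of all genes was 0.04. Of the former 9 fell and none rose, and of the latter 3 fell and 3 rose. The 3 falls of the transcriptional class came down to 1 without any one control array or array 2 of the depleted cells, with the replicate block, with housekeeping centring and at an adjusted p of 0.01. The remaining 10 cyclins and CDKs had a median of 0.29, with 4 that rose and none that fell.

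**Figure D1:**
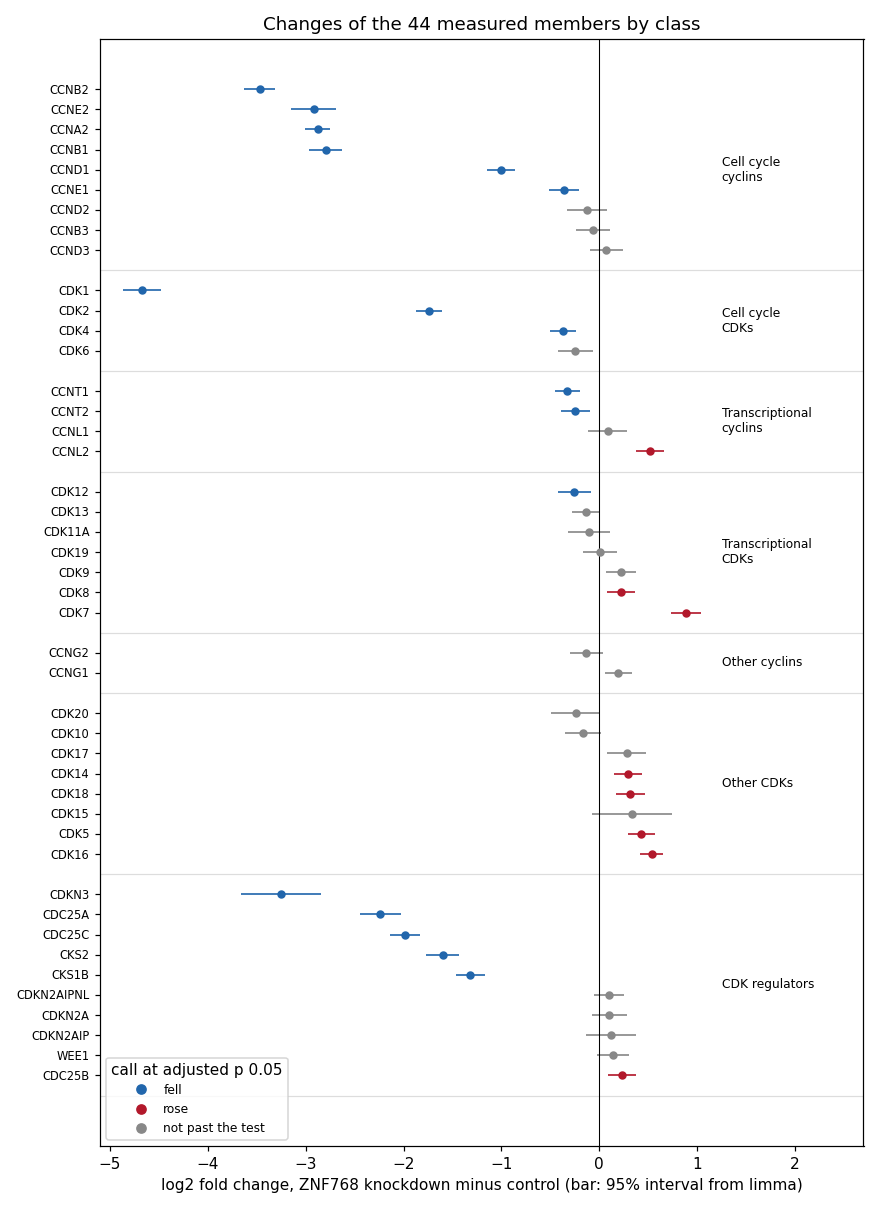
Log2 fold change of ZNF768 depleted against control cells for each of the 44 measured members, grouped by class, with the 95% interval from limma (3 arrays per group). Points are blue for members that fell, red for members that rose and grey for members not past the test, and the changes run from -4.67 for CDK1 to 0.89 for CDK7.

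Among the CDKs of the cell cycle, the change was deepest for CDK1, the kinase of mitotic entry, which read 9.17, 9.27 and 9.28 in control cells and 4.69, 4.57 and 4.44 in ZNF768 depleted cells. It ranked 4 of 14884 genes by the size of the fall, and 3.92% of the control level was left (log2 fold change -4.67, SE 0.0801, limma adjusted p = 3.81e-06). Its level in depleted cells was at percentile 16.2 of all probesets, and how much of that is background is unknown. CDK2, the S phase kinase, read 10.88, 10.94 and 10.89 against 9.13, 9.22 and 9.15, which left 30.0% of the level in control cells (log2 fold change -1.74, SE 0.0560, adjusted p = 1.61e-05). Both kinases were separated between the groups without overlap, and the within-array difference of CDK1 minus CDK2 moved by -2.93.

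The G1 kinases changed little. CDK4 was at 11.93, 11.89 and 11.86 in control cells and at 11.53, 11.56 and 11.49 in ZNF768 depleted cells, 77.5% of the level in control cells (log2 fold change -0.37, adjusted p = 0.00422 from limma). CDK6, its close relative, was at 10.09, 10.08 and 10.06 against 9.85, 9.70 and 9.94. The groups of CDK6 did not overlap, but it did not pass the test (log2 fold change -0.24, 95% interval -0.43 to -0.06, adjusted p = 0.0657), and it passed when array 3 of the depleted cells was left out (log2 fold change -0.30, adjusted p = 0.0471). The difference of CDK4 minus CDK6 within an array was 1.80 to 1.84 in control cells and 1.55 to 1.86 in depleted cells, so a different change in these kinases was not seen (difference -0.12, exact permutation test, two-sided, p = 0.40).

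The mitotic cyclins and cyclin A2 fell, with log2 fold changes of -3.47 to -2.80. Cyclin B2 (CCNB2) read 10.66, 10.71 and 10.77 in control cells and 7.16, 7.30 and 7.26 in ZNF768 depleted cells, 9.02% of the control level and the 21st largest fall of all genes. For cyclin A2 (CCNA2), which serves both S phase and mitosis, the values were 11.36, 11.41 and 11.36 against 8.53, 8.49 and 8.48, or 13.6% of the control level. Cyclin B1 (CCNB1) had 9.27, 9.32 and 9.28 against 6.42, 6.44 and 6.61, or 14.4%. In each of these genes the separation between the groups was many times the spread within them, whose SD was 0.03 to 0.11. Cyclin B2 fell further than cyclin B1, since the within-array difference of CCNB1 minus CCNB2 was -1.49 to -1.39 in control cells and -0.86 to -0.65 in depleted cells. CCNB3, a B-type cyclin known mainly from meiosis, was dim and overlapped between the groups (log2 fold change -0.06, 95% interval -0.24 to 0.11, adjusted p = 0.591 from limma).

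The E cyclins, which start S phase with CDK2, parted from each other. CCNE2 read 9.25, 9.25 and 9.35 in control cells and 6.55, 6.21 and 6.33 in ZNF768 depleted cells, 13.2% of the level in control cells (log2 fold change -2.92, SE 0.0965, limma adjusted p = 1.74e-05). CCNE1 read 9.27, 9.31 and 9.32 against 9.00, 8.84 and 8.98, 77.9% of the level in control cells (log2 fold change -0.36, SE 0.0650, adjusted p = 0.00923). Thus both fell, and the change of CCNE2 was the deeper by 2.56 on the log2 scale. The difference of CCNE1 minus CCNE2 was -0.03 to 0.06 in the control arrays and 2.45 to 2.64 in the others.

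Of the D cyclins, which take mitogen signals to CDK4 and CDK6, only CCND1 passed the test. It read 12.22, 12.19 and 12.14 in control cells and 11.12, 11.24 and 11.15 in ZNF768 depleted cells, 49.8% of the level in control cells (log2 fold change -1.01, SE 0.0602, limma adjusted p = 0.000128). CCND2 read 6.88, 6.63 and 6.63 against 6.60, 6.61 and 6.56 (adjusted p = 0.355), and its other probeset gave the same log2 fold change of -0.12. CCND3 read 7.25, 7.21 and 7.08 against 7.19, 7.27 and 7.30, with overlap between the groups and a 95% interval of -0.10 to 0.24. The difference between D cyclins was itself larger than its spread. CCND1 minus CCND3 was 4.96 to 5.06 in control and 3.86 to 3.97 in depleted cells, and CCND1 minus CCND2 moved by -0.88. In control cells CCND2 and CCND3 were far dimmer than CCND1, at percentiles 56.6 and 64.9 of all probesets against 98.7. How much of their signal is background is unknown, so a fall in them could be missed.

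**Figure D2:**
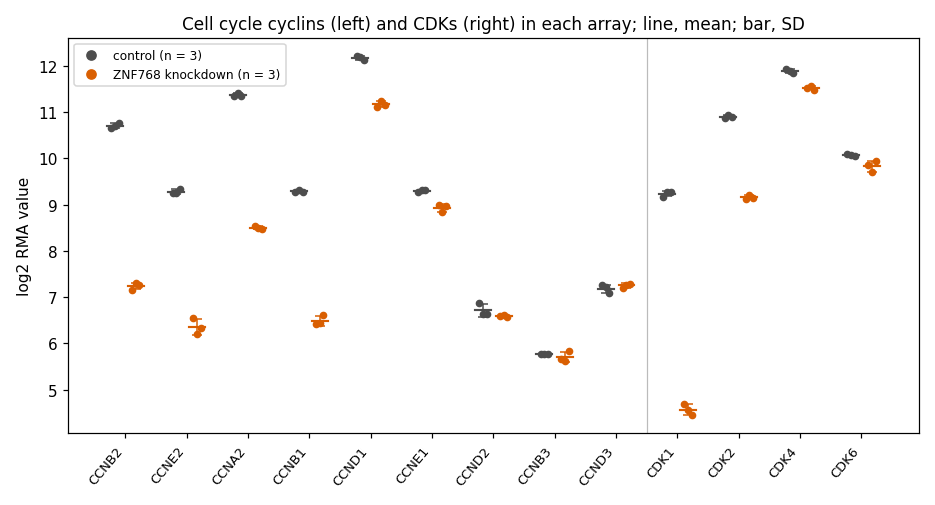
Log2 RMA values of the 13 measured cell cycle cyclins (left) and CDKs (right) in each of the 3 control arrays and 3 arrays of ZNF768 depleted cells, with the mean (line) and SD (bar) of each group. CDK1, CCNB2, CCNE2, CCNA2 and CCNB1 are far apart between the groups while CCND3 and CCNB3 overlap, and the height of a gene on the axis is not comparable with that of another gene since each probeset has its own response.

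Within-array differences were computed for 14 pairs of related members, and the smallest p that an exact two-sided permutation test of 3 against 3 arrays can give is 0.10. It was reached by 11 pairs (exact p = 0.127 after Benjamini-Hochberg adjustment over the 14), so no pair could pass a threshold of 0.05, and the separation of the arrays is the measure given here. The share of other gene pairs that separate was not computed. Of single genes, 23.5% were lower and 28.0% higher in depleted cells without overlap. Small shifts separated too (-0.08 for CCNT1 minus CCNT2), so the count of separated pairs is not a result particular to these relatives. The pairs not separated were CDK4 with CDK6, CDK12 with CDK13 and CDC25A with CDC25C. CDC25C was dim in depleted cells (mean at percentile 36.0 of all probesets), which limits the last comparison.

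**Figure D3:**
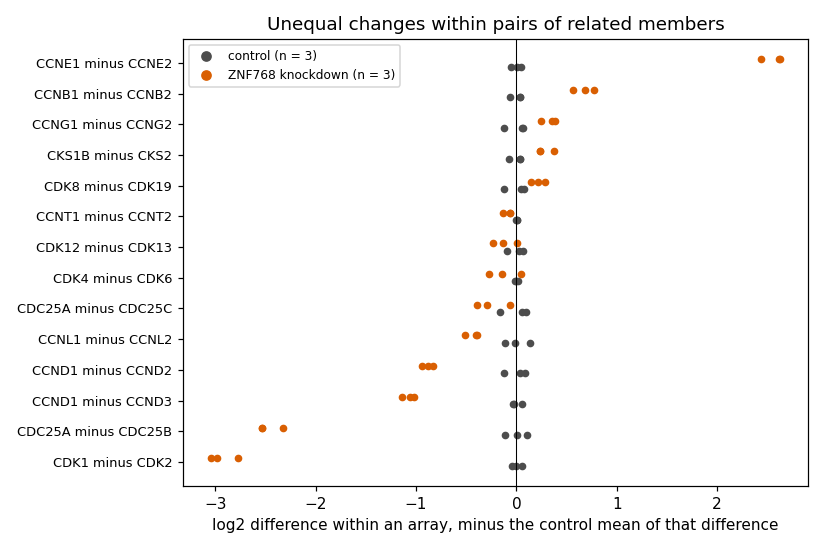
Difference between the log2 values of related members within each array, shifted so that the control mean of each difference is 0. Control arrays (grey, 3) scatter around 0, and arrays of ZNF768 depleted cells (orange, 3) lie furthest away for CDK1 minus CDK2 (mean shift -2.93) and CCNE1 minus CCNE2 (mean shift 2.56).

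The transcriptional class moved by small amounts and in both directions. CDK7 had the largest rise of all members. It is the kinase of the general transcription factor TFIIH and also the CDK-activating kinase, so it belongs to both branches. CDK7 read 8.80, 8.86 and 8.82 in control cells and 9.75, 9.62 and 9.77 in ZNF768 depleted cells, 1.85 times that in control cells (log2 fold change 0.89, SE 0.0641, limma adjusted p = 0.000258). It ranked 261 among all genes by the size of the rise. With CDK7 counted in the cell cycle class the median of that class was -0.69. Its partner cyclin H (CCNH), whose symbol has no digit and which is not a member, gave a log2 fold change of 0.26 (adjusted p = 0.0391).

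CDK8 and CDK19 are alternative kinases of the Mediator complex. CDK8 read 9.87, 9.80 and 9.92 against 10.07, 10.07 and 10.13 (log2 fold change 0.22, adjusted p = 0.0393 from limma), a call that was lost when any single array was left out (log2 fold changes 0.19 to 0.25). CDK19 overlapped between the groups, with 9.31, 9.41 and 9.33 against 9.33, 9.27 and 9.46 (log2 fold change 0.01, 95% interval -0.17 to 0.18). CCNC, the cyclin that serves both and a gene named here in the knowledge of its value, gave a log2 fold change of -0.03 (adjusted p = 0.810).

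CDK9 with cyclin T forms P-TEFb, which releases paused RNA polymerase II. CDK9 read 10.19, 10.14 and 10.03 in control cells and 10.31, 10.38 and 10.32 in ZNF768 depleted cells, separated between the groups but not past the test (log2 fold change 0.22, 95% interval 0.06 to 0.37, adjusted p = 0.0559 from limma). The T cyclins were lower. CCNT1 read 10.44, 10.50 and 10.44 against 10.16, 10.11 and 10.13, 79.7% of the control level (adjusted p = 0.00605), and CCNT2 read 8.49, 8.54 and 8.49 against 8.34, 8.21 and 8.24, 84.4% of the control level (adjusted p = 0.0307). The call of CCNT2 was lost when array 2 or 3 of the depleted cells or any control array was left out, with adjusted p up to 0.0983 over all alternatives.

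CDK12 and CDK13 phosphorylate the elongating polymerase with cyclin K. CDK12 read 9.62, 9.60 and 9.72 against 9.39, 9.31 and 9.47 (83.8% of the control level, adjusted p = 0.0425 from limma), and its call was lost without array 1 or 2 of the depleted cells or without any control array. CDK13 gave a log2 fold change of -0.14 (95% interval -0.28 to 0.0042, adjusted p = 0.160), and cyclin K (CCNK), no member since its symbol has no digit, had one of 0.19 (adjusted p = 0.0468). CDK11A and the L cyclins act in transcription and splicing. CCNL2 rose to 1.43 times the control level, from 8.93, 8.95 and 8.97 to 9.44, 9.43 and 9.55 (adjusted p = 0.00135), whereas CCNL1 overlapped between the groups (log2 fold change 0.08, 95% interval -0.11 to 0.28). CCNL1 minus CCNL2 was 0.21 to 0.46 in control and -0.18 to -0.06 in depleted cells. CDK11A read 7.01, 7.16 and 7.16 against 7.02, 6.86 and 7.14 with overlap, and since CDK11B is a near-identical copy its probes may report both genes.

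The CDKs outside these branches were the group in which rises were most frequent, with 4 of 8 against 16.6% of all genes. CDK16, a cyclin Y-dependent kinase of vesicle transport and differentiation, read 9.84, 9.85 and 9.86 in control cells and 10.38, 10.39 and 10.39 in ZNF768 depleted cells, 1.45 times that in control cells (log2 fold change 0.53, SE 0.0501, limma adjusted p = 0.000658). CDK5, best known for its part in neurons with the activators p35 and p39, read 10.86, 10.79 and 10.87 against 11.24, 11.25 and 11.32, 1.35 times the control level (adjusted p = 0.00277). CDK18, a relative of CDK16, read 7.10, 7.15 and 7.22 against 7.46, 7.42 and 7.53 (1.24 times, adjusted p = 0.0129). All 3 were separated between the groups.

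CDK14, another kinase that works with cyclin Y, read 9.27, 9.32 and 9.34 against 9.63, 9.54 and 9.63 (1.22 times the control level, adjusted p = 0.0142 from limma), and the call was lost without array 1 of the depleted cells (log2 fold change 0.28, adjusted p = 0.0518). Cyclin Y (CCNY), no member since its symbol has no digit, gave a log2 fold change of 0.29 (adjusted p = 0.0127). CDK17, the last relative of CDK16, was separated between the groups and did not pass the test (log2 fold change 0.28, 95% interval 0.08 to 0.48, adjusted p = 0.0550). CDK15 overlapped and varied most among control arrays of all members (SD 0.28). CDK10 and CDK20, with log2 fold changes of -0.16 and -0.24, did not pass the test. Of the G cyclins, which bind a protein phosphatase and respond to stress, CCNG1, a p53 target, read 11.15, 11.22 and 11.18 against 11.41, 11.40 and 11.33 (1.15 times the control level, adjusted p = 0.0502) and CCNG2 gave a log2 fold change of -0.13 (adjusted p = 0.259).

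**Figure D4:**
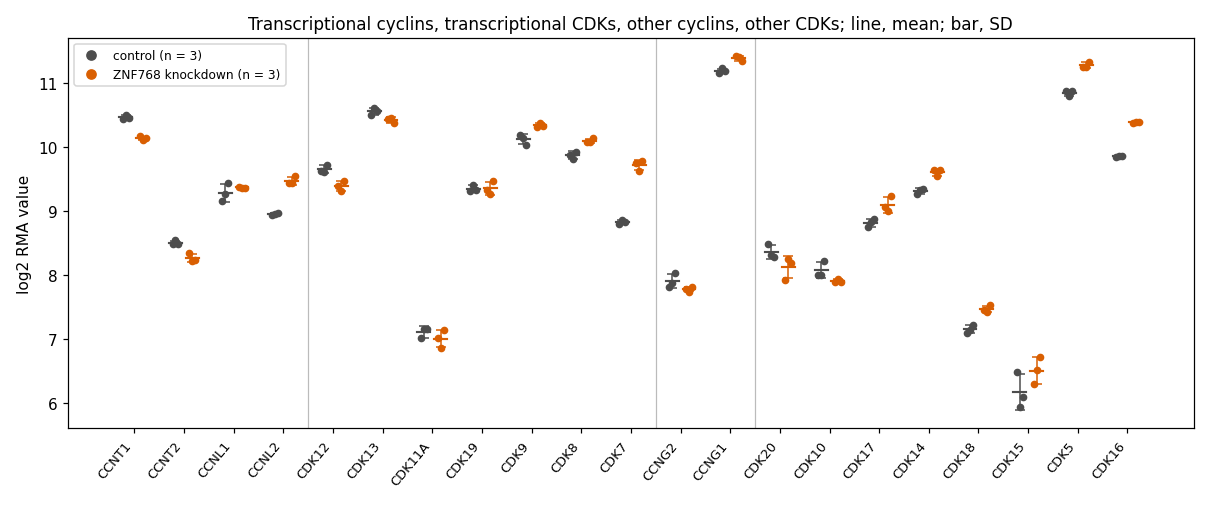
Log2 RMA values of the transcriptional cyclins, transcriptional CDKs, other cyclins and other CDKs (sections from left to right) in 3 control arrays and 3 arrays of ZNF768 depleted cells, with the mean (line) and SD (bar) of each group. CDK7, CCNL2, CDK5, CDK16, CDK18, CDK14, CDK17, CDK8, CDK9 and CCNG1 lie higher in depleted cells without overlap. CCNT1, CCNT2, CDK12, CDK13, CDK10, CDK20 and CCNG2 lie lower without overlap, and shifts are smaller than those of the mitotic cyclins. Over all genes 28.0% lie higher and 23.5% lower without overlap.

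Of the phosphatases that activate CDKs, CDC25A and CDC25C fell and CDC25B did not. CDC25A, which acts at the start of S phase and in mitosis, read 9.35, 9.36 and 9.24 in control cells and 6.97, 7.23 and 7.03 in ZNF768 depleted cells, 21.2% of the level in control cells (log2 fold change -2.24, SE 0.0851, limma adjusted p = 2.86e-05). CDC25C, which acts on CDK1 at mitotic entry, read 7.71, 7.76 and 7.86 against 5.83, 5.76 and 5.78, 25.2% of the control level. Its mean in depleted cells was at percentile 36.0 of all probesets. How much of that is background is unknown, so its fall could be deeper than it reads. CDC25B read 9.35, 9.45 and 9.45 against 9.61, 9.66 and 9.67. Its values were higher in depleted cells without overlap, at 1.17 times the control level, and its call (adjusted p = 0.0379) was lost when any single array was left out. CDC25A minus CDC25B was -0.22 to 0.00362 in control and -2.64 to -2.43 in depleted cells. WEE1, the kinase that opposes CDC25, read 10.08, 10.28 and 10.17 against 10.34, 10.30 and 10.33 (log2 fold change 0.14, 95% interval -0.02 to 0.31).

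CKS1B and CKS2 encode small subunits that bind CDKs and help them to reach phosphorylated substrates. CKS2 read 12.09, 12.09 and 12.07 in control cells and 10.37, 10.49 and 10.59 in ZNF768 depleted cells, 33.0% of the level in control cells (log2 fold change -1.60, adjusted p = 4.73e-05 from limma). CKS1B read 8.95, 9.07 and 9.05 against 7.68, 7.67 and 7.76, 40.1% of the level in control cells (log2 fold change -1.32, adjusted p = 5.66e-05). Both fell by over 2-fold.

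The measured members named as CDK inhibitors, which do not include CDKN1A, did not move together. CDKN3, which despite its name is a phosphatase that acts on the activation loop of CDKs, read 10.57, 10.69 and 10.61 in control cells and 7.27, 7.09 and 7.76 in ZNF768 depleted cells, 10.5% of the level in control cells (log2 fold change -3.25, SE 0.169, limma adjusted p = 7.98e-05) and the 30th largest fall of all genes. Its SD of 0.35 in depleted cells was the largest of all members, with array 3 above the others. CDKN2A encodes p16INK4A and p14ARF, and the locus is known to be deleted in U87 cells. It read 5.91, 5.91 and 5.89 against 6.13, 5.91 and 5.98, with means at percentiles 39.0 and 40.7 of all probesets and overlap between the groups. CDKN2AIP, whose product binds p14ARF, and CDKN2AIPNL carry the CDKN name without being inhibitors, and their log2 fold changes of 0.12 and 0.10 did not pass the test.

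**Figure D5:**
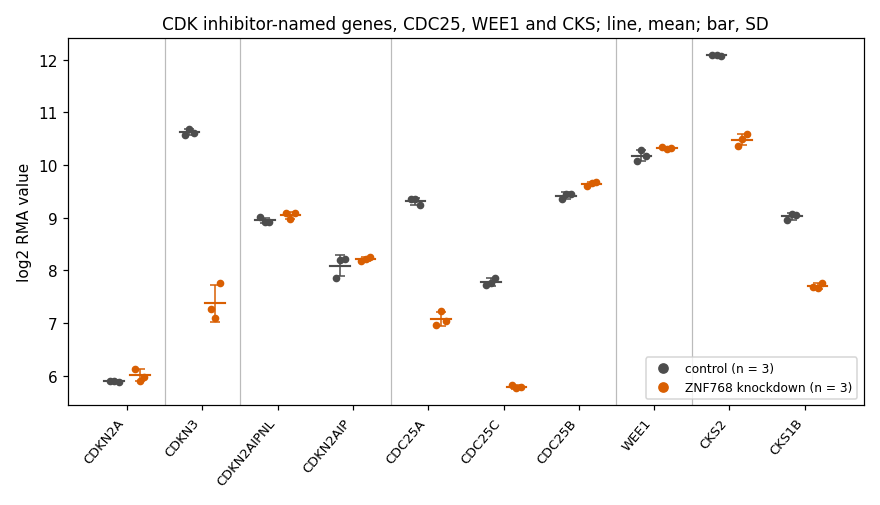
Log2 RMA values of the genes named as CDK inhibitors, the CDC25 phosphatases, WEE1 and the CKS subunits in 3 control arrays and 3 arrays of ZNF768 depleted cells, with the mean (line) and SD (bar) of each group. CDKN3, CDC25A, CDC25C, CKS2 and CKS1B are lower in depleted cells without overlap, CDC25B is slightly higher, and the points of CDKN2A overlap.

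Promoter windows from RefSeq (build GRCh38.p14, 250 bases before to 50 after a gene's start) were at hand for 39 of the 44 members, 14 of which have several windows. They were searched on both strands for the letters TTTGAA or TTCGAA, the core of the cell cycle homology region (CHR) that the DREAM and MMB complexes bind in G2/M genes, for CCAAT, the letters bound by NF-Y, and for TTTGGCGC or TTTCCCGC, forms of the E2F site. These words do not overlap each other in the windows printed here. CCND1, CCNE2 and CDK2, which fell at least 2-fold, and CCND2 and WEE1 had no window and are missing from the shares that follow. A CCAAT word was found in some window of 11 of 14 members that fell (78.6%), 4 of 8 that rose and 4 of 17 not past the test (23.5%), where 39.7% of the 27305 genes in the promoter table hold it. The CHR core was found in 6 of the 14 that fell (42.9%), 1 of the 8 that rose and 1 of the 17 others, where 19.5% of all genes hold it. By class, the core was in 2 of 9 cell cycle cyclins and CDKs (22.2%, near the share of all genes), 1 of 11 transcriptional ones (9.09%) and 0 of 10 of the remaining ones. The CCAAT word was in 5 of 9 (55.6%), 4 of 11 (36.4%) and 4 of 10 of these. The windows of CCNA2 and CCNB1 held no CHR core. Every member with a CHR core also held a CCAAT word in the same window. These were CDK1, CCNB2, CDKN3, CDC25C, CKS1B and CKS2 among those that fell, CDC25B among those that rose and CDK19 among the others. Of all genes 9.02% hold both, in the same window or in different ones. Counted by window, 6.38% of all 35116 windows hold both. The E2F words were found in CDC25A and CDK19 (2.75% of all genes). Such a match is a description of the letters and not a site of binding.

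The windows below are given 5′ to 3′ on the strand of the gene, with matches in capitals on either strand. They show the deepest falls of a CDK and a cyclin (CDK1 and CCNB2), a CKS subunit, CDC25A with its E2F word, and CDK7, the member with the largest rise, for contrast. CDK1 is at chr10:60778228-60778527 (plus strand, the one of 2 windows with more matches), CCNB2 at chr15:59104896-59105195 (plus), CKS1B at chr1:154974431-154974730 (plus), CDC25A at chr3:48188368-48188667 (minus) and CDK7 at chr5:69234545-69234844 (plus).
CDK1: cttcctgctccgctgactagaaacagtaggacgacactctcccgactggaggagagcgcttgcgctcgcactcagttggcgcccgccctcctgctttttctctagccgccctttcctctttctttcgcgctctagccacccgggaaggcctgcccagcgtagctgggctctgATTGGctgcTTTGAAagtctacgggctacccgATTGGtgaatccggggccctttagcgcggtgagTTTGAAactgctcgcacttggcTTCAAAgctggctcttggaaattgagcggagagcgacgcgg
CCNB2: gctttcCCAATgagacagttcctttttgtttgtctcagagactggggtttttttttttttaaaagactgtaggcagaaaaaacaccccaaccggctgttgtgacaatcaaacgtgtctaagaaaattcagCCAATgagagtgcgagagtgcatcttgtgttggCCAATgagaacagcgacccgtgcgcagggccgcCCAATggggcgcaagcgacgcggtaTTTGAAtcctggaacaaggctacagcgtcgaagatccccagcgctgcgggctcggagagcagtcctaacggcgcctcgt
CKS1B: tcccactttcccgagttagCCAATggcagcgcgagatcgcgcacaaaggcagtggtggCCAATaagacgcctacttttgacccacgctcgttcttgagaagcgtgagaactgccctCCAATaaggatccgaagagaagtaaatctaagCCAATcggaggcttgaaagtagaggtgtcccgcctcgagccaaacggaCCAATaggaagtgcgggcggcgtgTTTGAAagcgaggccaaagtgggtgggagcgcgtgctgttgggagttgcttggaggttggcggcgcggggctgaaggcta
CDC25A: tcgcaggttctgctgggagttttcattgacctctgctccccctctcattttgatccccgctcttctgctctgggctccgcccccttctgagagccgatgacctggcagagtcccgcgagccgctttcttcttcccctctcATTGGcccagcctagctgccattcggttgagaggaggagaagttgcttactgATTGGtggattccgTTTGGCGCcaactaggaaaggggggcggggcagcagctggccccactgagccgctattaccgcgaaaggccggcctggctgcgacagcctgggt
CDK7: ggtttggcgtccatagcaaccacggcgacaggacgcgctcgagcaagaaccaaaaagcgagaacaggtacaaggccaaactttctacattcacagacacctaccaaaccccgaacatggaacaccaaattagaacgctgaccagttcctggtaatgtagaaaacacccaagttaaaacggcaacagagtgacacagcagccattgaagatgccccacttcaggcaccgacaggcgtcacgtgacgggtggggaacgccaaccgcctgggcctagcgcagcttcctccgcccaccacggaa
In CCNB2 and CKS1B the CHR core begins 29 and 30 bases before the start and a CCAAT word 54 bases before it in both genes, with 4 and 5 CCAAT words in all. CKS2, whose window is not printed, has the core 29 and a CCAAT word 52 bases before the start. The core lies elsewhere in CDKN3 (170 bases before the start), in CDK19 (226) and in CDC25B (38, with a CCAAT word at 73), and in CDC25C it is 30 bases before the start of one window. The window of CDK1 holds 3 CHR cores, 1 of them after the start, and 2 CCAAT words, and neither window of CDK7 holds any of the words.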

How the data were processed

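Affymetrix Human Gene 2.0 ST arrays were hybridized with RNA of 3 control and 3 ZNF768 depleted cultures. The authors made the deposited values, log2 expression per probeset, by RMA in the oligo package (background correction, normalization between arrays, summary of probes). Its version and any filter are not given in the sources used here. Of 53617 probesets, 16098 carry a gene symbol in the platform's table and none carries several. The brightest probeset stood for a gene (14884 genes), and CCND2 was the 1 member with several. Classes follow known roles. The members and lists were chosen with earlier results of these data known.

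The comparison used limma 3.58.1 under R 4.3.3. A linear model of group alone was fitted to every probeset with lmFit and eBayes, and p-values were adjusted by Benjamini-Hochberg across the 53617 probesets, with 0.05 as the limit. Intervals are 95% intervals and standard errors the moderated ones of limma. All members could be named by rule, and from the comparison lists at most 2 rises and 2 falls past the test. The procedure was tested on simulated data. Pairs of members were compared by an exact permutation test of within-array differences. Alternatives were cyclic loess, centring on 6 housekeeping genes, a filter on probesets dimmer than the median, the mean of a gene's probesets, trend and robust eBayes, array weights, a replicate block, leaving out each array, an adjusted p of 0.01 and other memberships of the classes. Promoter letters were read with Python 3.11.15 from RefSeq windows.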

Additional observations from a re-analysis of the deposited data

How the results depend on the processing

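Of the 17 members that fell, 15 kept the call under all 13 alternative fits, and of the 8 that rose, 5 did. CCNT2, CDK12, CDC25B, CDK14 and CDK8 lost it under some, CCNG1, CDK17, CDK6 and CDK9 passed under some, and no called member changed direction. Of the members, 3 were left out of the fit without probesets below the median. The count of members that rose was 4 at an adjusted p of 0.01 and 5 with the replicate block. The count of transcriptional cyclins and CDKs that fell was 1 at an adjusted p of 0.01, with the replicate block and with centring on housekeeping genes. Leaving out an array gave 15 to 17 falls and 5 to 6 rises of members (5 without array 1 of the depleted cells), 9 to 10 falls of cell cycle and 1 to 2 falls of transcriptional members. It moved the median log2 fold change of cell cycle members from -1.04 to -0.98, that of transcriptional members from -0.05 to 0.05 and that of all genes from 0.034 to 0.048. The median of cell cycle members was -0.94 with centring on housekeeping genes, -1.37 without probesets below the median (fewer genes), -0.88 with cyclins without a digit added and -0.69 with CDK7 added. The median of all genes was 0.0056 with cyclic loess and 0.11 with housekeeping centring. Where not given, the cause was not tested.

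Control and knockdown arrays share replicate numbers, but arrays with the same number did not deviate together (correlation of deviations from the group means -0.07, -0.02 and 0.02). Whether the cultures were paired by these numbers cannot be decided from 3 arrays per group. The main fit assumes no pairing. With the replicate block 15 members fell. Precision is limited by 3 arrays per group, and the background of dim probesets is not known.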

Other observations

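Among genes that remove cyclins or steer the phosphatases and ubiquitin ligases around CDKs, 13 of 22 listed were measured, of which 9 fell and 1 rose, with a median log2 fold change of -0.42. Over all genes 16.8% fell and 16.6% rose. CDC20, which directs the anaphase-promoting complex to cyclin B, gave a log2 fold change of -4.10 and FBXO5 (EMI1), the inhibitor of that complex, one of -1.80 (limma adjusted p = 9.52e-06 and 3.76e-05). CDC14A, a phosphatase that opposes CDKs, was the gene that rose, with 0.89 (SE 0.105, limma adjusted p = 0.00164). CCNF (cyclin F), a ubiquitin ligase subunit that binds no CDK, gave a log2 fold change of -0.75 (SE 0.0581).

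Of 23 listed genes of transcription elongation and the Mediator kinase module, 14 were measured, 4 fell and 4 rose (28.6% each, against 16.8% and 16.6% of all genes), with a median log2 fold change of -0.03. MED12L, a Mediator kinase module subunit, gave a log2 fold change of 1.21 (SE 0.0952) and ELL3, an elongation factor, one of 0.72. NELFB, a subunit of the negative elongation factor, had -0.94 (SE 0.0606) and MED13L, which links the kinase module to Mediator, had -0.70.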
